A study of Mus musculus with 2 samples.

Results

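The cells described here are Klrg1-positive effector natural killer (NK) cells with little of the Cx3cr1 program, in mouse tumors. A cell was a member when it carried at least 1 UMI of Klrg1 and at least 1 UMI of Gzmk, Gpx8 or Itgam. It also had fewer than 2 of the 3 genes Cx3cr1, S1pr5 and Zeb2 detected, under 2 UMIs of Cd3d and Cd3e together, and none of Tmem176a or Tmem176b. Members were thus chosen by the measured UMIs of these genes, and what the rule used is given as description. A UMI (unique molecular identifier) is the tag that counts 1 captured transcript once. Of 6622 kept cells, 947 were members, namely 330 of 3067 in the KO library and 617 of 3555 in the WT library.

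The KO library came from mice with Hif1a, a subunit of the hypoxia-inducible factor, knocked out in NK cells, and the WT library from wild-type mice. Mice of both genotypes carried subcutaneous RMA-S tumors, from a mouse lymphoma line with low MHC class I, and were killed 2 weeks after the injection. NK cells had been sorted from the tumors as negative for CD3ε and positive for NK1.1, and each genotype was read as 1 droplet library of 3′ transcript tags. The labels name neither the Cre driver nor the number, sex or age of the mice, so the comparison is between 2 libraries, with no replicate and no test, and every interval below covers counting error only. Such an interval is too narrow where a few cells hold most of the UMIs. The libraries held 13407906 UMIs in 3110 KO barcodes and 19553440 UMIs in 3574 WT barcodes. They shared 19 kept barcodes, carried by 1 KO and 3 WT members, and no barcode was a member in both.

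As background, KLRG1 is an inhibitory receptor for cadherins that mouse NK cells gain late in their maturation, when they lose CD27 and gain CD11b, the integrin chain encoded by Itgam. CD11b pairs with the β2 chain, encoded by Itgb2, to form an adhesion receptor. Terminal NK cells also carry the chemokine receptor CX3CR1 and the sphingosine phosphate receptor S1PR5, which serves their exit from tissue, and the transcription factor Zeb2 promotes this last step. Gzmk encodes granzyme K, a serine protease of cytotoxic granules, and Gpx8 a peroxidase of the endoplasmic reticulum.

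The label held in part. Levels are in CPM, the UMIs of a gene in a group of cells scaled to a total of 1000000. All 9 NK identity genes were detected in members, at 12356 CPM summed in KO and 11685 CPM in WT. Detecting all 9 does not set members apart. Other NK cells, defined below, also had all 9, at 10828 CPM in KO and 11518 CPM in WT. So did cells with 2 or more UMIs of Cd3d and Cd3e together, at 6266.5 CPM in KO and 7103 CPM in WT. Of 9 T cell markers in the table, Cd4, Cd8a and Cd8b1 had no UMI in members of either library. The 9 summed to 120 CPM in KO and 127 CPM in WT, led by Cd28 in KO and Cd3g in WT. Cd3d and Cd3e are in this list and were capped by the rule, so part of the low sum was set in advance. Other NK cells, under the same cap, summed to 147 CPM in KO and 135 CPM in WT. Of 8 myeloid markers, C1qa, C1qb and Adgre1 had none, and the list summed to 82.4 CPM in KO and 99.4 CPM in WT, mostly Itgax, which NK cells also express. Of 5 basophil and mast cell markers, Mcpt8 had 108 UMIs in WT members and none in KO members, and Fcer1a, Ms4a2 and Cd200r3 had none in either. The 4 B cell markers summed to 15.9 CPM in KO members, 24 of 26 UMIs in members admitted by Itgam alone, and to 1.97 CPM in WT members. The neutrophil markers S100a8 and S100a9 had 9 UMIs in KO members and none in WT members. Hemoglobin genes summed to 291 CPM in KO members and 985 CPM in WT members, against 300.2 CPM in KO and 774 CPM in WT other NK cells. Of 3991 hemoglobin UMIs in WT members, 3700 lay in members admitted by Itgam alone. The part of these markers in the differences below was not tested.

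Being without the Cx3cr1 program was a limit set by the rule rather than an absence. None of its 3 genes was detected in 144 KO members (43.6%) and 243 WT members (39.4%), and exactly 1 in 186 KO and 374 WT members. That 1 gene was Zeb2 in 135 KO and 273 WT members, S1pr5 in 33 and 78, and Cx3cr1 in 18 and 23. Zeb2 stood at 142 CPM in KO members and 126 CPM in WT members. The cells that met every other part of the rule but had at least 2 of the 3 genes, called program cells below (98 KO, 261 WT), had 525 CPM of Zeb2 in KO and 412 CPM in WT. Other NK cells, meaning all kept cells within the Cd3 and Tmem176 limits that were not members, program cells included (2487 KO, 2561 WT), had 177 CPM in KO and 193 CPM in WT. The Zeb2 level of members thus lay below that of other NK cells in both libraries, as the rule makes likely, but not near 0.

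Many members sat close to the edge of the rule. A single Klrg1 UMI admitted 189 of the KO members (57.3%) and 263 of the WT members (42.6%). Just outside it, 612 KO and 562 WT cells failed only for want of a Klrg1 UMI, and 302 KO and 379 WT cells only for want of Gzmk, Gpx8 and Itgam. A Klrg1 UMI was also found in 14.9% of KO and 29.5% of WT cells past the Cd3 limit, whose median depths were 5000 and 5353 UMIs. When each cell was thinned to 2500 UMIs and the rule applied again, 54.9% of KO members and 50% of WT members deep enough to be thinned were still members.

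Members made up 10.8% of kept KO cells (exact 95% interval 9.68 to 11.9) and 17.4% of kept WT cells (16.1 to 18.6). After thinning, with 418 KO and 92 WT cells left out as too shallow, the shares were 7.25% (6.29 to 8.30) in KO and 11.5% (10.5 to 12.6) in WT. Members were scarcer in the KO library at both depths, with intervals that did not overlap. This was not particular to members. At full depth, program cells made up 3.195% of kept cells in KO and 7.34% in WT. All cells with Klrg1 within the Cd3 and Tmem176 limits made up 25.6% in KO and 37.3% in WT. Cells of the KO library were shallower, at a median of 3793 UMIs against 4440 in WT. Within each library the share of members was higher in deeper cells. It was 6.22% in KO and 5.43% in WT below 2500 UMIs, where WT had 5 members, and 9.83% in KO and 13.2% in WT from 2500 up to 4000 UMIs. From 4000 up to 6000 UMIs it was 11.7% in KO and 18.5% in WT, and from 6000 UMIs it was 16.2% in KO and 22.7% in WT. The KO share was the lower one in the 3 deeper bins. The intervals lay apart from 4000 up to 6000 UMIs, met at 20.1% from 6000 UMIs and overlapped in the shallower bins.

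**Figure D1:**
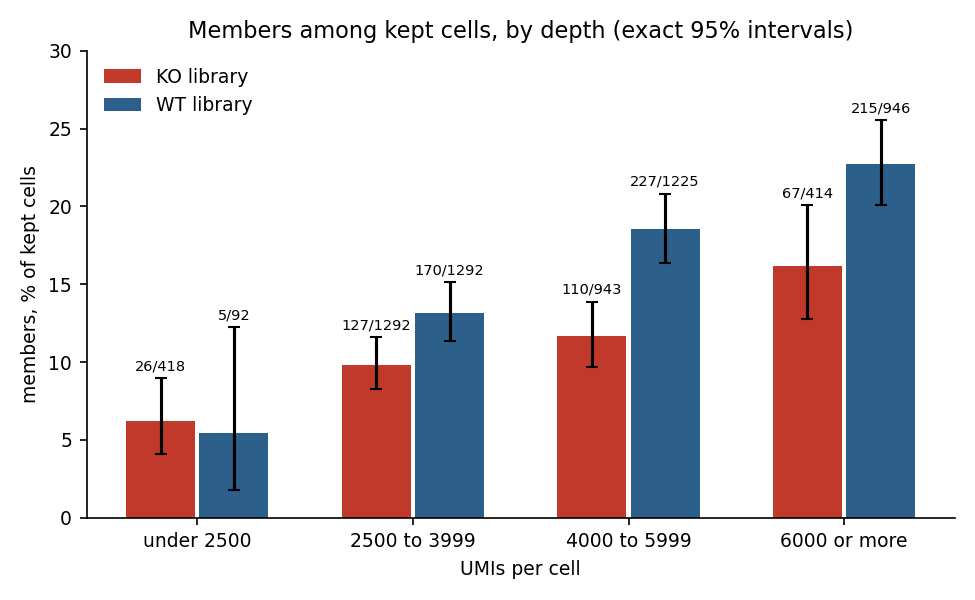
Members as a percentage of kept cells (vertical axis) by UMIs per cell (horizontal axis), KO bars left of WT bars, with exact 95% binomial intervals and the counts of members over cells. The share is higher in deeper cells, and KO bars are lower than WT bars from 2500 UMIs upward.

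The rule used the genes Klrg1, Gzmk, Gpx8 and Itgam, so their levels are a description. Klrg1 stood at 376 CPM in KO members and 417 CPM in WT members, against 79.6 CPM in KO and 127 CPM in WT other NK cells. Program cells had more Klrg1 than members in both libraries, at 550 CPM in KO and 494 CPM in WT. Gzmk was the only one of the 3 admitting genes that was higher in members than in program cells in both libraries, with 64.7 CPM in members and 30.9 CPM in program cells of KO, and 130 CPM in members and 111 CPM in program cells of WT. In WT the counting intervals overlapped. Gpx8 ran the other way, with 61.6 CPM in members and 124 CPM in program cells of KO, and 78.2 CPM in members and 167 CPM in program cells of WT. Itgam had 251 CPM in members and 354 CPM in program cells of KO, and 194 CPM in members and 258 CPM in program cells of WT.

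Itgb2, the partner of Itgam, was no part of the rule. It reached 318 CPM in members and 227 CPM in other NK cells of KO, and 324 CPM in members and 248 CPM in other NK cells of WT, a log2 ratio of 0.49 (95% counting interval 0.35 to 0.63) in KO and 0.39 (0.30 to 0.48) in WT. It was higher still in program cells, at 469 CPM in KO and 400.5 CPM in WT. Gzma, the gene of granzyme A, followed the same order, with 19288 CPM in members, 20724 CPM in program cells and 12996 CPM in other NK cells of KO, and 17135, 22092 and 11526 CPM in the same groups of WT. For both genes, members stood between other NK cells and program cells.

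**Figure D2:**
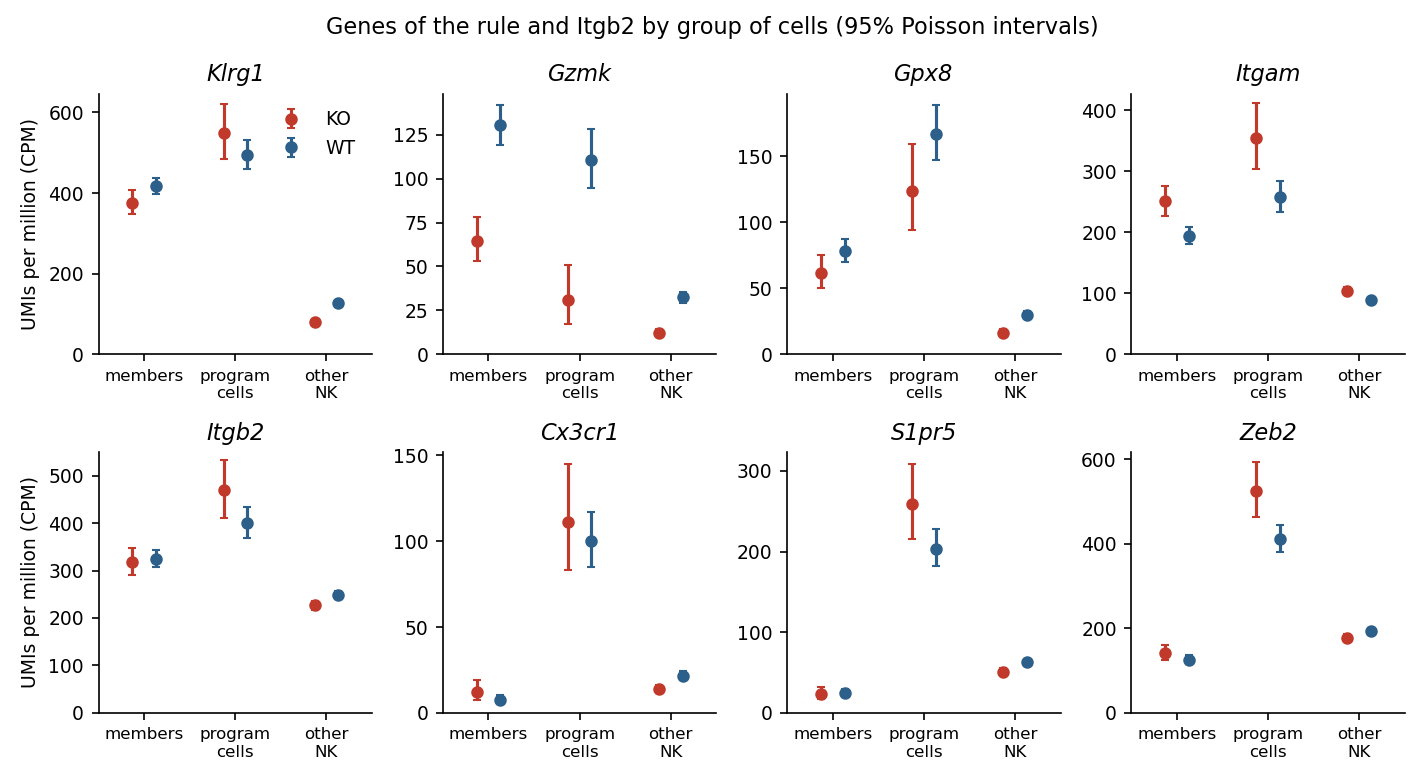
Summed level in CPM (vertical axes) of Klrg1, Gzmk, Gpx8, Itgam, Itgb2, Cx3cr1, S1pr5 and Zeb2 in members, program cells and other NK cells, KO in red left of WT in blue, with 95% Poisson counting intervals. Gpx8, Itgam and Itgb2 are highest in program cells, Gzmk in members, and Itgb2 alone was not used by the rule.

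Gpx8, Gzma and Gzmk are neighbours on mouse chromosome 13, all on the minus strand. In GENCODE M21 on GRCm38 (mm10), Gpx8 spans chr13:113042753-113046410, Gzma chr13:113093825-113100981 and Gzmk chr13:113171608-113225908, with gaps of 47.4 kb and 70.6 kb between them. The 3 promoters, from 250 bases before to 50 bases after the first RefSeq start on GRCm38.p6, are shown because Gpx8 and Gzmk, 2 of the 3 admitting genes, come from this stretch. They cover chr13:113046339-113046638 for Gpx8, chr13:113100932-113101231 for Gzma and chr13:113180916-113181215 for Gzmk, each printed along its own minus strand. The Gzmk window lies within the GENCODE span of Gzmk, not at the upstream end of that span at 113225908. Capitals mark matches to GGTGTGA (a T-box motif), TGTGGT (a Runx motif) and AGGAAGT (an ETS motif), searched on both strands, and a match on the opposite strand appears as its reverse complement.
Gpx8: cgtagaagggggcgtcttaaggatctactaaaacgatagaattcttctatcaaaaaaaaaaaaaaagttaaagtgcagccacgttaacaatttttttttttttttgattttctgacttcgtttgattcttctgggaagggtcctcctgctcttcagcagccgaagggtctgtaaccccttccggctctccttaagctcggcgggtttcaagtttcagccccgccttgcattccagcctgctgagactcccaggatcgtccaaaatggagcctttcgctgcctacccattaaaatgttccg
Gzma: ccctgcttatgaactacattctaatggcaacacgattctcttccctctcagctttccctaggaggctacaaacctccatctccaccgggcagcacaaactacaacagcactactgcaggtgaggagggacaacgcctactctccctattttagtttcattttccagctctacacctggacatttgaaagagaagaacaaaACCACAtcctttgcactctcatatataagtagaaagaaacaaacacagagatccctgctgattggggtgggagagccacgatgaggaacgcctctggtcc
Gzmk: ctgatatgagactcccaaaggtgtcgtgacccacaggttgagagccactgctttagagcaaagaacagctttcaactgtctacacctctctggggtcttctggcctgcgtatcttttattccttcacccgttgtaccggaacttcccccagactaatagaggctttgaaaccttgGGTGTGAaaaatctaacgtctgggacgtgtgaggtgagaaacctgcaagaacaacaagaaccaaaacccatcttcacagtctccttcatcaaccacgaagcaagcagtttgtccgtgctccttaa
The Gzmk window held the T-box letters 75 bases before its start, which 3.98% of 32851 promoters hold. The Gzma window held the Runx letters on the opposite strand 50 bases before its start, which 16.8% hold. The Gpx8 window held none of the 3 motifs, and 9.35% of promoters hold the ETS letters.

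Gzmk and Gpx8 were detected together in few members, 7 in KO (2.12%) and 64 in WT (10.4%). Among all cells within the Cd3 and Tmem176 limits, Gpx8 was found in 10.9% of KO cells with Gzmk and 6.91% without it, and in 26.9% of WT cells with Gzmk and 11.2% without it. At 2500 UMIs the WT shares were 15.9% with Gzmk and 7.47% without, while the KO shares of 5.71% and 4.54% had overlapping intervals. By the GENCODE positions, Gpx8 lies inside Cdc20b, and Esm1 inside the Gzmk span, both on the opposite strand. Esm1, at chr13:113209659-113218098, lies upstream of the RefSeq start of Gzmk used for its promoter. Esm1 was detected in 7.25% of KO cells with Gzmk and 0.336% without it, and in 9.54% of WT cells with Gzmk and 0.433% without it. Whether reads were counted by strand is not given in the sources used here, so UMIs of Gpx8 and Cdc20b, and of Gzmk and Esm1, cannot be told apart with certainty.

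Against other NK cells of their own library, members carried less of the genes of earlier NK stages and more of some surface, calcium-binding and granule genes. Of 6508 genes with enough UMIs in both libraries, 24 were at least 1.5-fold higher in members in both (0.369% of genes measured) and 43 at least 1.5-fold lower in both (0.661%). Only Rassf3 lay past the fold in opposite directions (0.0154%). The genes of the rule were left out of these counts, and because the rule drew this contrast, all of it is description. The median log2 ratio over all measured genes was -0.05 in KO and -0.02 in WT. Members were deeper, with medians of 4123 UMIs in KO and 4981 UMIs in WT, against 3656 UMIs in KO and 4240 UMIs in WT other NK cells.

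Immature NK genes were mostly lower in members. Of the 14 genes of the list, all measured, 13 were lower in members in both libraries and 6 of them past 1.5-fold, with medians of -0.58 in KO and -0.61 in WT. Tcf7, the transcription factor TCF1 of early and memory-like lymphocytes, had 27.5 CPM in members and 75.7 CPM in other NK cells of KO, and 22.2 CPM in members and 68.3 CPM in other NK cells of WT. Its log2 ratio was -1.43 (-1.93 to -1.03) in KO and -1.58 (-1.95 to -1.31) in WT. Emb, which encodes the cell adhesion protein embigin, had 118 CPM in members and 387 CPM in other NK cells of KO, and 110 CPM in members and 271 CPM in other NK cells of WT. Cd27, the receptor that marks the earlier NK stages, had 78.7 CPM in members and 147 CPM in other NK cells of KO, and 66.9 CPM in members and 118 CPM in other NK cells of WT. Members of both libraries were the lower group for each of these genes.

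The cytokine gene Ltb, the receptor gene Il7r and the receptor gene Kit were the other 3 of the list past the fold, with Il7r resting on 13 UMIs in KO members. The exception was Thy1, a surface glycoprotein gene, at 257 CPM in members and 128 CPM in other NK cells of KO, and 353 CPM in members and 174 CPM in other NK cells of WT. Its log2 ratio was 0.997 (0.84 to 1.16) in KO and 1.02 (0.93 to 1.12) in WT. Of 16 measured transcription factor genes, Tcf7, Bach2 and Tox were lower past the fold in both libraries and none was higher past the fold. Eomes, which directs NK development, stood at 231 CPM in members and 243 CPM in other NK cells of KO, and 156 CPM in members and 197 CPM in other NK cells of WT. Its relative Tbx21 had 131 CPM in members and 115 CPM in other NK cells of KO, and 79.2 CPM in both groups of WT.

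The list of mature NK genes leaned upward by less. All 16 were measured, 13 were higher in members in both libraries, and 2 passed the fold, with medians of 0.28 in KO and 0.29 in WT. These were S100a4 and S100a6, which encode calcium-binding proteins. S100a6 had 1445 CPM in members and 633 CPM in other NK cells of KO, and 1907 CPM in members and 1002 CPM in other NK cells of WT. S100a4 had 225 CPM in members and 69.7 CPM in other NK cells of KO, and 291 CPM in members and 97.8 CPM in other NK cells of WT. Both were higher in members by a margin far outside their counting intervals. Those intervals leave out how UMIs are spread over cells. The S100a4 UMIs of KO members with Gzmk lay mostly in few cells, as given below.

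Of 17 measured cytotoxic granule genes, 11 were higher in both libraries but only Gzmb passed the fold. Gzmb, the gene of granzyme B, had 4375 CPM in members and 2632 CPM in other NK cells of KO, and 4286 CPM in members and 2532 CPM in other NK cells of WT. Prf1, which encodes the pore-forming protein perforin, had 318 CPM in members and 189 CPM in other NK cells of KO, and 399 CPM in members and 265 CPM in other NK cells of WT, just under the fold in WT. Lgals3 (galectin-3), Capg (an actin-capping protein) and Glrx (glutaredoxin) were among the 12 highest genes. Lgals3 had 210 CPM in members and 111 CPM in other NK cells of KO, and 280 CPM in members and 130 CPM in other NK cells of WT. Of 9 measured inhibitory receptor genes, Lag3 and Ctla4 passed the fold upward, and Ctla4 rested on 93 UMIs in KO members, of which 10 cells held 77.4%.

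**Figure D3:**
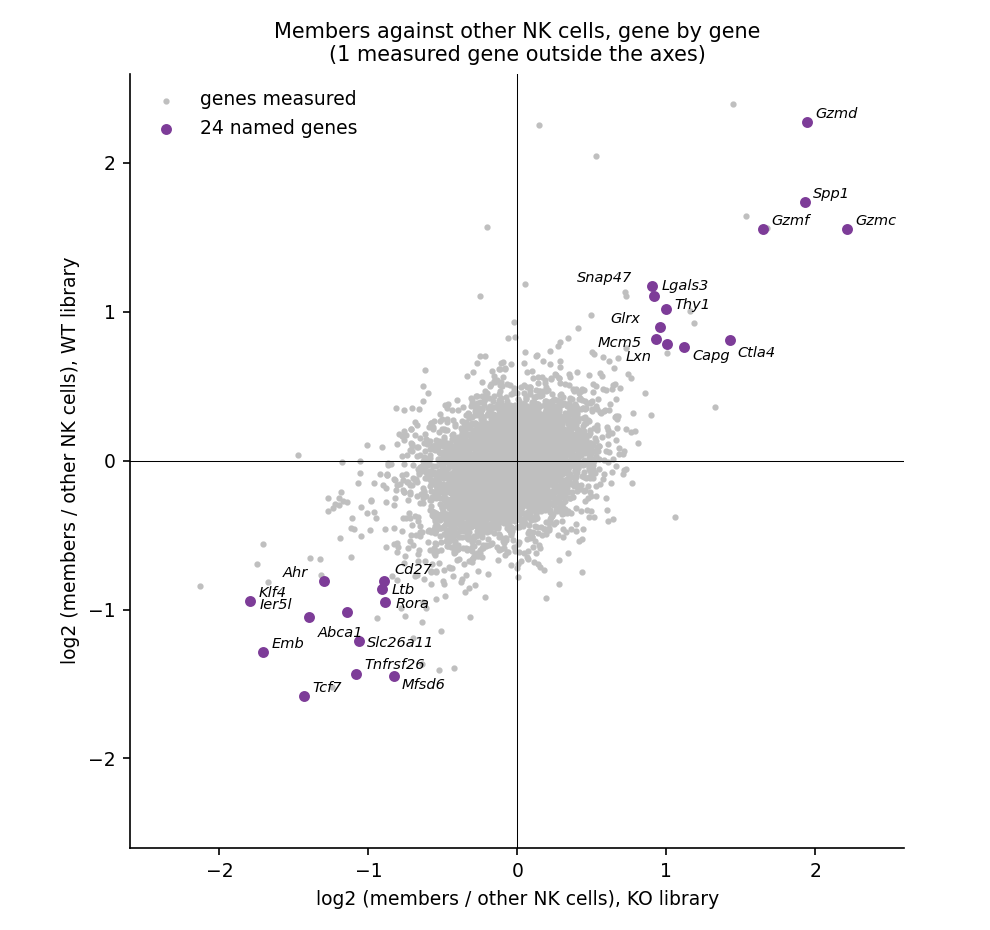
Log2 ratio of members over other NK cells in the KO library (horizontal axis) and the WT library (vertical axis), 1 point per measured gene, with the 12 highest and 12 lowest named genes in purple. Tcf7, Emb and Cd27 lie low on both axes, Thy1 and Lgals3 high, and 4 genes led by Gzmd lie furthest out at the top right.

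The 4 genes furthest out were carried by few cells. Gzmc, Gzmd and Gzmf, related granzyme genes, and Spp1, the gene of osteopontin, had log2 ratios from 1.65 to 2.21 in KO and from 1.55 to 2.27 in WT. The 10 members richest in each gene held 96.6% of its UMIs in KO and 82.6% in WT for Gzmd, and 91.9% in KO and 62.2% in WT for Spp1. Only 6 KO members (1.82%, interval 0.670 to 3.92) and 33 WT members (5.35%, 3.71 to 7.43) had at least 20 UMIs of Gzmc to Gzmg together, and these cells held 90.2% of such UMIs in KO members and 95.3% in WT members. Such cells were rarer among other NK cells, at 6 in KO (0.241%, 0.0886 to 0.524) and 23 in WT (0.898%, 0.570 to 1.34). The members among them were very deep, with medians of 18064 UMIs in KO and 20102 UMIs in WT. Of them, 5 of 6 KO and 30 of 33 WT carried at least 3 of 22 S and G2M genes at full depth. Among all members, whose median depths were 4123 and 4981 UMIs, 19.4% in KO and 32.9% in WT did. The part of depth in this was not tested, nor whether doublets are among the granzyme-rich cells. Without cells carrying 3 or more of those 22 genes, the log2 ratio of Gzmd was -2.22 in KO and -0.14 in WT, so its direction rested on those cells, and Gzmc, Gzmf and, in KO, Spp1 turned too. The count of genes 1.5-fold higher in members in both libraries was then 8 in place of 24.

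Members were also set against the 612 KO and 562 WT cells that had an admitting gene and fewer than 2 program genes but no Klrg1 UMI. Of 6369 genes, 48 were at least 1.5-fold higher in members in both libraries (0.754%) and 50 lower (0.785%). Tcf7 had a log2 ratio of -1.20 in KO and -1.47 in WT, Thy1 1.27 in KO and 1.42 in WT, and S100a6 1.22 in KO and 1.16 in WT. These cells are part of the other NK cells and the members are the same, so the values are no independent support of those above.

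Against program cells, the lists of immature and mature NK genes lay the other way round than against other NK cells. The rule set these 2 groups apart by Cx3cr1, S1pr5 and Zeb2, so this contrast is description too. Program cells were deeper, at medians of 4832 UMIs in KO and 5058 UMIs in WT, against 4123 and 4981 UMIs in members. Of 3033 measured genes, 39 were at least 1.5-fold higher in members in both libraries (1.29%) and 25 lower (0.824%), and Senp2 alone went in opposite directions (0.033%). All 9 measured immature NK genes were higher in members in both libraries and 4 passed the fold, with medians of 0.78 in KO and 0.80 in WT, beside all-gene medians of 0.01 in KO and 0.03 in WT. Cd27 had 78.7 CPM in members and 39.1 CPM in program cells of KO, and 66.9 CPM in members and 22.1 CPM in program cells of WT, a log2 ratio of 0.99 (0.31 to 1.79) in KO and 1.55 (1.08 to 2.16) in WT. Ctla2a, an inhibitor of cysteine proteases, had 636 CPM in members and 309 CPM in program cells of KO, and 485 CPM in members and 199 CPM in program cells of WT. Emb had 118 CPM in members and 67.9 CPM in program cells of KO, and 110 CPM in members and 54.0 CPM in program cells of WT. With the values against other NK cells, Cd27 and Emb were lower in members than in other NK cells and higher than in program cells in both libraries.

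Of 14 measured mature NK genes, 11 were lower in members than in program cells in both libraries, and 1 passed the fold. This was Klf2, a transcription factor that sustains exit receptors of lymphocytes, at 1012 CPM in members and 1721 CPM in program cells of KO, and 988 CPM in members and 1537 CPM in program cells of WT. Tbx21, the gene of T-bet, had 131 CPM in members and 247 CPM in program cells of KO, and 79.2 CPM in members and 131 CPM in program cells of WT, a log2 ratio of -0.91 (-1.25 to -0.59) in KO and -0.72 (-0.98 to -0.46) in WT. Nfil3 and Ikzf2, both transcription factor genes, were higher in members past the fold. The activating receptor gene Ncr1 (NKp46) was lower, at 562 CPM in members and 928 CPM in program cells of KO, and 448 CPM in members and 677 CPM in program cells of WT.

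The 10 lowest genes against program cells included Timp2 (a metalloproteinase inhibitor), Cmklr1 (the chemerin receptor) and Ccnd3 (cyclin D3). Timp2 had 42.7 CPM in members and 111 CPM in program cells of KO, and 29.4 CPM in members and 68.3 CPM in program cells of WT. Cmklr1 had 43.9 CPM in members and 109 CPM in program cells of KO, and 33.8 CPM in members and 67.6 CPM in program cells of WT. The immediate early genes Fos and Jun and the heat shock genes Hspa1a and Hspa1b were in the same group, Hspa1a at 186 CPM in members and 924 CPM in program cells of KO, and 670 CPM in members and 1322 CPM in program cells of WT. Among the 10 highest, Hilpda (a lipid droplet protein), Itgb3 (the integrin β3 chain) and Plac8 stood beside Gzmf, Gzmc, Gzmd and Spp1, whose UMIs were concentrated as described. Itgb3 had 161 CPM in members and 43.2 CPM in program cells of KO, and 74.8 CPM in members and 30.6 CPM in program cells of WT. Program cells numbered only 98 in KO, and 10 of them held 76.2% of its Itgb3 UMIs.

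Members were not uniform, and the gene that admitted them marked different cells. Gzmk was present in 50 KO members (15.2%, 11.5 to 19.5) and 208 WT members (33.7%, 29.99 to 37.6). Gpx8 without Gzmk admitted 71 KO (21.5%) and 129 WT (20.9%) members, and Itgam alone admitted 209 KO (63.3%, 57.9 to 68.5) and 280 WT (45.4%, 41.4 to 49.4). Among members thinned to 2500 UMIs, Gzmk was detected in 9.54% in KO (6.48 to 13.4) and 18.1% in WT (15.2 to 21.4). Members of the KO library were thus more often admitted by Itgam alone and less often by Gzmk, also at equal depth for Gzmk. The lower share with Gzmk was not particular to members. Among cells within the Cd3 and Tmem176 limits without a Klrg1 UMI, Gzmk was found in 3.89% in KO and 7.39% in WT. Among such cells after thinning to 2500 UMIs, it was found in 2.08% in KO and 6.02% in WT.

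Members with Gzmk were set against members admitted by Itgam alone. Of 2151 genes, 22 were at least 1.5-fold higher with Gzmk in both libraries (1.02%) and 31 lower (1.44%), and Cd74 alone went in opposite directions (0.0465%). Thy1 had 471 CPM with Gzmk and 198 CPM with Itgam alone in KO, and 474 CPM with Gzmk and 236 CPM with Itgam alone in WT. S100a4 had 441 CPM with Gzmk and 181 CPM with Itgam alone in KO, and 438 CPM with Gzmk and 202 CPM with Itgam alone in WT. The immature NK gene Ltb, lower in members as a whole, had 106 CPM with Gzmk and 56.0 CPM with Itgam alone in KO, and 108 CPM with Gzmk and 56.0 CPM with Itgam alone in WT. In KO, 10 of the 50 Gzmk members held 92.5% of the S100a4 UMIs and 88.6% of the Ltb UMIs of that group. All 3 genes were higher with Gzmk in both libraries.

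The chemokine, immediate early and exit genes ran the other way. Ccl4, the gene of the chemokine MIP-1β, had 2695 CPM with Gzmk and 5602 CPM with Itgam alone in KO, and 1058 CPM with Gzmk and 2201 CPM with Itgam alone in WT. Ccl3, the gene of MIP-1α, had 1370 CPM with Gzmk and 2379 CPM with Itgam alone in KO, and 784 CPM with Gzmk and 1535 CPM with Itgam alone in WT. All 6 measured cytokine and chemokine genes were lower with Gzmk in both libraries, and 17 of 18 immediate early genes were lower in both, 4 of them past the fold (Fos, Jun, Ier5 and Dusp1). Klf2 had 697 CPM with Gzmk and 1138 CPM with Itgam alone in KO, and 743 CPM with Gzmk and 1180 CPM with Itgam alone in WT. Cma1, a mast cell chymase gene, and Bcl2, a survival gene, were lower too, Cma1 at 269 CPM with Gzmk and 546 CPM with Itgam alone in KO, and 157 CPM with Gzmk and 366 CPM with Itgam alone in WT. Members with Gzmk were deeper, at medians of 4760 UMIs in KO and 5931 UMIs in WT, against 3969 UMIs in KO and 4623 UMIs in WT for Itgam alone, and more of them in WT carried S and G2M genes. At 2500 UMIs, 22.1% of WT members with Gzmk (16.7 to 28.4) and 9.42% with Itgam alone (6.25 to 13.5) had 3 or more of the 22 genes, while the KO shares of 9.09% (2.53 to 21.7) and 4.15% (1.81 to 8.004) overlapped. Other markers moved with the split as well. NK identity genes summed to 11056 CPM with Gzmk and 12748 CPM with Itgam alone in KO, and to 10385 and 12350.5 CPM in WT. Of these 9 genes, 8 were lower with Gzmk in both libraries. Granzymes C to G summed to 5170 CPM with Gzmk and 283 CPM with Itgam alone in KO, and to 6133 and 3120 CPM in WT. With Gzmk, 2 KO members held 97.0% of those UMIs, and 23 WT members 97.3%. A T cell marker UMI was found in 44% of KO and 45.7% of WT members with Gzmk, against 26.8% of KO and 25.7% of WT members with Itgam alone, with Cd4, Cd8a and Cd8b1 at 0 in all 4 groups. The T cell list summed to 199 CPM with Gzmk and 109 CPM with Itgam alone in KO, and to 140.2 CPM with Gzmk and 130 CPM with Itgam alone in WT. Hemoglobin genes summed to 317 CPM with Gzmk and 302 CPM with Itgam alone in KO, and to 123 CPM with Gzmk and 2353 CPM with Itgam alone in WT. The part of depth, cell cycle and these markers in the differences was not tested.

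**Figure D4:**
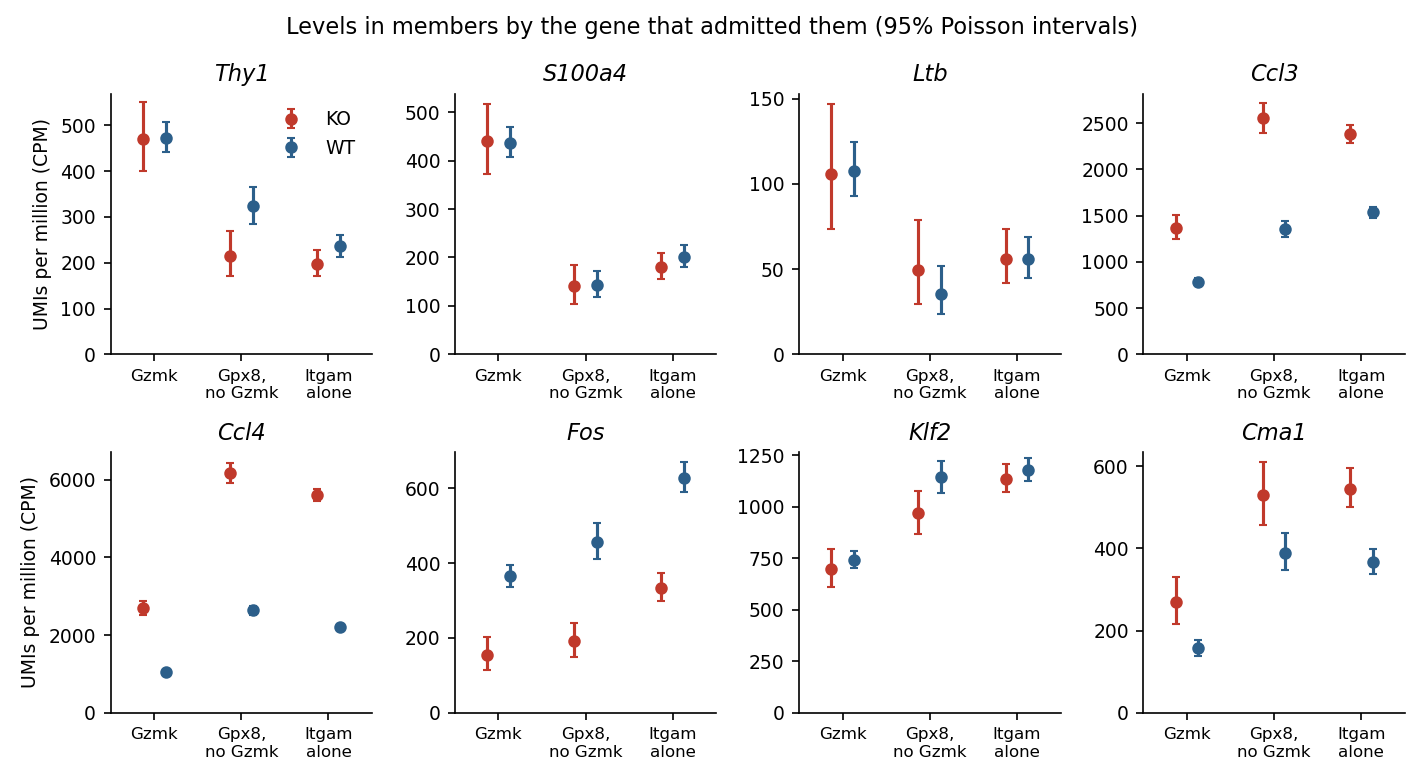
Summed level in CPM (vertical axes) of Thy1, S100a4, Ltb, Ccl3, Ccl4, Fos, Klf2 and Cma1 in members with Gzmk, with Gpx8 but no Gzmk, and with Itgam alone, KO in red left of WT in blue, with 95% Poisson counting intervals. Thy1, S100a4 and Ltb are highest and the other 5 genes lowest with Gzmk in both libraries, and Ccl3, Ccl4 and Cma1 are higher in KO on every route.

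KO members and WT members were then compared. Hif1a itself had 51.9 CPM in KO members and 61.2 CPM in WT members. Since the tags read only 3′ ends and the deleted exons are not named in the labels, this level checks nothing about the knockout. Of 6375 measured genes, 126 were at least 2-fold higher in KO members (1.98%) and 115 at least 2-fold lower (1.8%). Over the same genes, other NK cells had 91 at least 2-fold higher in KO (1.43%) and 52 lower (0.816%). Of the 126 genes, 125 had the same sign in other NK cells and 69 passed 2-fold there, and of the 115 genes, 112 had the same sign and 43 passed. The genotype difference of members was therefore shared in direction with other NK cells for nearly all of these genes, and whether it was larger in members was not tested.

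NF-κB genes and immediate early genes were among the higher genes. Of 20 measured NF-κB genes, 12 were at least 2-fold higher in KO members, and 2 were lower but none by 2-fold. The median log2 ratio was 1.26 in members and 0.94 in other NK cells, beside all-gene medians of 0.01 and 0.03. Nfkbid, which encodes a nuclear IκB protein, had 249 CPM in KO members and 33.1 CPM in WT members, a log2 ratio of 2.87 (2.63 to 3.20), against 2.16 in other NK cells. Its relative Nfkbiz had 452 CPM in KO members and 96.2 CPM in WT members. Gadd45b, a stress response gene, had 785 CPM in KO members and 155 CPM in WT members, and Icam1, the gene of an adhesion ligand of β2 integrins, had 438 CPM in KO members and 102 CPM in WT members. Each of these intervals lay far from 0, and no 10 KO members held more than 20.5% of the UMIs of any of the 4 genes.

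Of 18 measured immediate early genes, 9 were at least 2-fold higher in KO members, and 3 were lower but none by 2-fold. The median was 0.93 in members and 0.84 in other NK cells. Nr4a1, a nuclear receptor gene switched on by receptor signals, had 1138 CPM in KO members and 206 CPM in WT members, a log2 ratio of 2.46 (2.34 to 2.58). Csrnp1, a transcription factor gene, had 270.3 CPM in KO members and 45.7 CPM in WT members. Fos went against the list, at 266 CPM in KO members and 485 CPM in WT members, a log2 ratio of -0.86 (-1.02 to -0.72). Vegfa, which encodes the vascular growth factor VEGF-A and is a known HIF target, had 266 CPM in KO members and 35.5 CPM in WT members, a log2 ratio of 2.87 (2.63 to 3.19), against 2.17 in other NK cells. It was the only one of 10 measured HIF targets outside glycolysis past 2-fold, and the median of that list was -0.18 in members and -0.07 in other NK cells.

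Of 7 measured cytokine and chemokine genes, Ifng, Ccl4, Ccl9 and Cxcl10 were at least 2-fold higher in KO members, with a median of 1.18 in members and 0.57 in other NK cells. Ifng, the gene of interferon gamma, had 783 CPM in KO members and 301 CPM in WT members, a log2 ratio of 1.38 (1.26 to 1.49). Ccl4 had 5141 CPM in KO members and 1798 CPM in WT members, a log2 ratio of 1.52 (1.47 to 1.56). Because the routes into the rule differed in size between the libraries, the genes were also read within each route. Ifng had 462 CPM in KO and 261 CPM in WT with Gzmk, 704 CPM in KO and 348 CPM in WT with Gpx8 but no Gzmk, and 926 CPM in KO and 323 CPM in WT with Itgam alone. Nr4a1 had 625 CPM in KO and 179 CPM in WT with Gzmk, 1130 CPM in KO and 192 CPM in WT with Gpx8 but no Gzmk, and 1321 CPM in KO and 244 CPM in WT with Itgam alone. Both genes, and Ccl4, Nfkbid, Nfkbiz and Vegfa as well, were higher in KO on all 3 routes with counting intervals that did not overlap.

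Glycolysis genes were lower in KO members. Of 15 measured, 13 were lower and 5 past 2-fold (Pfkl, Tpi1, Gapdh, Pgk1 and Slc16a3), with a median of -0.80 in members and -0.45 in other NK cells. The median in members was -0.33 without cells carrying 3 or more of 25 S and G2M genes and -0.52 among cells of 2500 to 6000 UMIs. In that order, these settings kept 126 and 237 of 330 KO members, and 159 and 397 of 617 WT members. Pgk1, phosphoglycerate kinase, had 59.8 CPM in KO members and 153 CPM in WT members, a log2 ratio of -1.34 (-1.67 to -1.04). Gapdh had 508 CPM in KO members and 1097 CPM in WT members, with the reservation that it has many pseudogene copies. Within routes Gapdh had 721 CPM in KO and 1392 CPM in WT with Gzmk, 522 CPM in KO and 747 CPM in WT with Gpx8 but no Gzmk, and 428 CPM in KO and 943 CPM in WT with Itgam alone. All 20 oxidative phosphorylation genes were lower in KO members and none by 2-fold, with a median of -0.25 in members and -0.18 in other NK cells. Gapdh was lower in KO on every route.

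S and G2M genes were among the lower genes. All 24 measured S and G2M genes were lower in KO members and 15 by at least 2-fold, with a median of -1.29 in members and -0.62 in other NK cells. At 2500 UMIs, 4.93% of KO members (2.79 to 8.01) and 15.03% of WT members (12.3 to 18.1) had 3 or more of the 22 genes, against 5.97% of KO and 8.67% of WT other NK cells. At full depth, 64 of 330 KO members (19.4%) and 203 of 617 WT members (32.9%) had 3 or more of them. Without the cells that did so at full depth, 266 KO and 414 WT members remained. Among these, 41 genes in place of 115 were at least 2-fold lower in KO members. Genes of the list are among the 115 and also chose the cells left out, so nothing is read from the list itself in the cells that remain. Ube2c, a mitotic ubiquitin-conjugating enzyme gene, had 5 UMIs in KO members and 206 UMIs in WT members. Ifitm1, an interferon-inducible gene, was the lowest gene of all, with 1 UMI in KO members and 1038 UMIs in WT members, and 10 WT members held 82.7% of that WT count. Its log2 ratio was -7.32 (-14.02 to -6.23). The metallothionein gene Mt1 and Ifitm2 were lower likewise, with 71.0% and 70.6% of their WT UMIs in 10 members.

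Of 5 measured granzymes C to G, Gzmc, Gzmd, Gzme and Gzmg were at least 2-fold lower in KO members and Gzmf was at -0.92. The granule genes that members share broadly did not differ by 2-fold. Gzma had 19288 CPM in KO members and 17135 CPM in WT members, Gzmb 4375 CPM in KO members and 4286 CPM in WT members, and Prf1 318 CPM in KO members and 399 CPM in WT members. None of 17 measured cytotoxic granule genes passed 2-fold, with a median of 0.03 in members and in other NK cells. The 16 measured mature NK genes had a median of -0.01 in members, and only Anxa2 passed 2-fold, at 463 CPM in KO members and 970 CPM in WT members. The 12 measured immature NK genes had a median of 0.01 and none passed 2-fold.

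**Figure D5:**
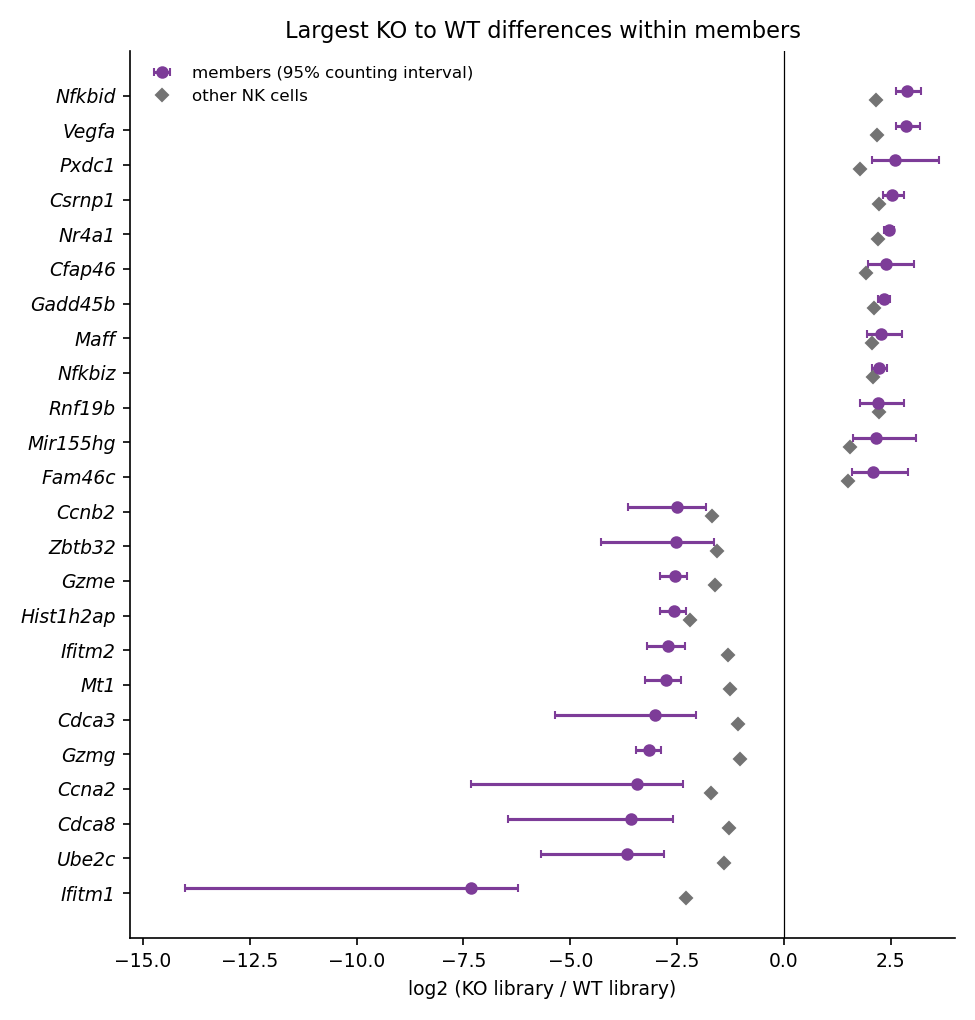
Log2 ratio of the KO over the WT library (horizontal axis) for the 12 highest and 12 lowest genes within members, with 95% counting intervals, above the same ratio in other NK cells (grey diamonds). Every diamond lies on the same side of 0 as its member value, and the low end is led by Ifitm1 with 1 KO UMI.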

How the data were processed

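The authors deposited 1 table of UMI counts for each library, with 27998 genes and unscaled whole numbers. The submitters' processing notes name Cell Ranger 2.0.2, Seurat and the build mm10, without a role for each, and whether reads were counted by strand is not given in the sources used here. Cells were kept where 500 or more genes were detected and mitochondrial transcripts took no more than 10% of UMIs. The members and gene lists were chosen with earlier results of these data known. UMIs were summed over the cells of a group, scaled to CPM, and compared as log2 ratios with 1 CPM added to each side. A gene was measured where the smaller group expected at least 20 UMIs. Within a library, a gene was called when it lay at least 1.5-fold apart the same way in both libraries. Between libraries the fold was 2. The genes named are the 12 highest and 12 lowest of a comparison (10 each against program cells), list genes with the largest ratios, and the genes of the rule. Other list genes were named after their values were seen. The ranking left out antigen receptor, hemoglobin, ribosomal protein, mitochondrial and sex-linked genes. Intervals are exact at 95%: binomial for shares, Poisson for levels, and conditional binomial for ratios. Equal depth means random thinning to 2500 UMIs, which left out shallower cells. Doublets were kept and no doublet caller was run. With 1 library of each genotype no p-value was computed. Median depth of kept cells was 3793 UMIs in KO and 4440 UMIs in WT. The code was tested on simulated counts. Python 3.11.15, numpy 2.4.6, scipy 1.17.1, pandas 2.3.3 and matplotlib 3.10.9 were used, with RefSeq promoters on GRCm38.p6 and GENCODE gene positions.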

Additional observations from a re-analysis of the deposited data

Results flagged for a closer look

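Each gene here lay at least 1.5-fold apart in opposite directions in the groups set against each other, and none of these differences was tested. Rassf3 had a log2 ratio of members over other NK cells of -0.62 in KO (9.15 CPM in members and 14.6 CPM in other NK cells) and 0.61 in WT (13.3 CPM in members and 8.38 CPM in other NK cells). It was the 1 gene of 6508 to do so (0.0154%). Senp2 had a log2 ratio of members over program cells of 0.84 in KO and -0.73 in WT, the 1 gene of 3033 (0.033%). Cd74 had a log2 ratio of members with Gzmk over members admitted by Itgam alone of -0.60 in KO and 2.44 in WT, the 1 gene of 2151 (0.0465%). The 113 UMIs of KO members admitted by Itgam alone lay in 10 cells. The share of members with a Cd74 UMI ran the same way in both libraries, at 20% with Gzmk and 4.78% with Itgam alone in KO, and 29.8% with Gzmk and 6.07% with Itgam alone in WT. Between KO and WT, Ifitm3 had a log2 ratio of -1.65 in members and 0.67 in other NK cells, with 22 UMIs in 2 cells of the KO members. Ccr7, a lymph node homing receptor gene, had -1.14 in members and 0.74 in other NK cells. It had 11 UMIs in 4 KO members and 65 UMIs in 18 WT members, and at 2500 UMIs it was found in 0.987% of KO and 0.980% of WT members. Gp1bb had 0.60 in members and -0.68 in other NK cells.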

How the results depend on the processing

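No paired analysis was possible because each genotype had 1 library. The main shares, their KO over WT ratio and the main gene counts were recomputed under alternatives, 92 values in all. Of these, 53 moved by less than their limits, 39 moved and 0 reversed. Only the 8 values of the log2 ratio of shares could reverse, since a count or a percentage cannot change sign. The KO over WT log2 ratio of shares, -0.69, ranged from -1.12 to -0.54. Over the cells within the Cd3 and Tmem176 limits the WT share was 19.4%. With 2 or more Klrg1 UMIs required, the shares were 4.60% in KO and 9.96% in WT, their log2 ratio was -1.12, and 43 genes were higher and 82 lower against other NK cells. With none of the 3 program genes allowed, the shares were 4.70% in KO and 6.84% in WT, with 13 genes higher and 19 lower. With the rule applied to thinned cells, the shares were 7.25% in KO and 11.5% in WT, 11 genes were higher and 28 lower against other NK cells, 19 higher and 8 lower against program cells, and 71 lower in KO members. Without the deepest 3% of cells, 11 genes were higher against other NK cells. Leaving out cells with 3 or more of 25 S and G2M genes kept 126 KO and 159 WT members, at shares of 9.63% and 14.4%. Then 8 genes were higher and 20 lower against other NK cells, 6 higher and 4 lower against program cells, and 35 lower in KO members. An alternative chosen after seeing the data left out cells carrying 3 or more of 22 S and G2M genes. It kept 266 KO and 414 WT members, with a WT share of 16.0%. In it, 8 genes were higher against other NK cells, 12 lower against program cells and 41 lower in KO members. Mean CPM per cell gave 13 genes lower against program cells, and a pseudocount of 5 gave 23 lower against other NK cells. With no gene minimum, 149 genes were higher and 178 lower against other NK cells, 631 higher and 266 lower against program cells, and 600 higher and 613 lower in KO members. Among cells of 2500 to 6000 UMIs, 6 genes were higher against other NK cells and 31 lower in KO members. The comparison with program cells was not run with none of the 3 genes allowed or within 2500 to 6000 UMIs.

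Named genes that reversed against other NK cells were mostly granzymes C to G and Spp1. With no program gene allowed, Gzmd had -0.15 and Gzmf -0.21 in KO. With thinned cells, KO values were -2.90 for Gzmd, -1.74 for Spp1, -0.56 for Gzmc and -2.52 for Gzmf. Without the deepest 3%, KO values were -0.24 for Spp1, -0.29 for Gzmc and -0.61 for Gzmf, and -0.41 for Spp1 against program cells. Without cells with 3 of 25 cycle genes, KO values were -1.50 for Spp1, -1.32 for Gzmc, -1.57 for Gzmf and -0.070 for Lxn, and WT values -0.32 for Gzmc and -0.15 for Mcm5. Against program cells, Gzmf had -0.18, Spp1 -0.70 and Ctla4 -0.022 in KO and Vegfa -0.40 in WT, and Cdca8 had 1.65 between KO and WT members. Among cells of 2500 to 6000 UMIs, Gzmc had -0.69, Gzmf -0.64 and Lxn -0.14 in KO, and Gzmd -0.40, Gzmc -0.51, Gzmf -0.80, Mcm5 -0.32 and Ctla4 -0.44 in WT. Without cells with 3 of 22 cycle genes, Gzmd had -2.22, Spp1 -1.12, Gzmc -0.54, Gzmf -2.22 and Lxn -0.37 in KO, Gzmd -0.14, Gzmc -0.97 and Gzmf -0.58 in WT, Spp1 -0.42 against KO program cells, and the S and G2M median between KO and WT members was 0.093, in cells chosen for carrying fewer than 3 of those same genes. The cause was not tested.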
